A study of Mus musculus with 6 samples.

Results

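The miR-29 family members described here are 5 mature mouse miRNAs, mmu-miR-29a-3p, mmu-miR-29b-3p, mmu-miR-29c-3p, mmu-miR-29b-1-5p and mmu-miR-29c-5p, chosen by name among the 1881 miRNAs on the array and written below without the species prefix. All 5 were found, on 12 probes and 150 spots per array, and each had 1 row in the deposited value table. The tissue was whole left ventricle from C57BL/6 males that had received sunitinib (3 samples, called sunitinib below) or vehicle (3 samples, titled control). From each sample 200 ng of total RNA was labelled with Cy3 and hybridised to an Agilent miRNA array. Sunitinib is a tyrosine kinase inhibitor used against cancer. The labels give no dose, length of treatment or age. They also do not say that each sample came from a mouse of its own, so the spread behind the p-values is that between these samples and may be technical.

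miRNAs are short RNAs that pair, mainly through their seed (bases 2 to 8), with messenger RNAs and lower their output. The miR-29 family is known for targeting messenger RNAs of the extracellular matrix, among them those of fibrillar collagens, fibrillin and elastin, and in mouse heart it is more abundant in fibroblasts than in cardiomyocytes. Loss of miR-29 is associated with fibrosis in several organs, which gave the family its name as antifibrotic. No messenger RNA, collagen or tissue stain was measured on these arrays, so that property is background here.

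The mature sequences are shown because the seed sets the 3 members of the 3p arm apart from the 2 of the 5p arm. Each is given 5′ to 3′ from RefSeq (GRCm38.p6), with the seed in capitals.
miR-29a-3p: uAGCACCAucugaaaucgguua
miR-29b-3p: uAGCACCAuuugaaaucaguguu
miR-29c-3p: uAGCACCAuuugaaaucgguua
miR-29b-1-5p: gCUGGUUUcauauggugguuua
miR-29c-5p: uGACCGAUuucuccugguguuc
The 3 members of the 3p arm share the seed AGCACCA, and no other of the 1679 mature miRNAs in the RefSeq table has it. The seeds of miR-29b-1-5p and miR-29c-5p each occur in 1 mature miRNA of that table, their own. With positions counted from 1 at the 5′ end, miR-29a-3p and miR-29c-3p differ by a single substitution, C10U, over 22 positions. From miR-29a-3p to miR-29b-3p there were 4 substitutions in the same stretch (C10U, G18A, U21G and A22U).

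The members come from 4 hairpins in 2 clusters. In the RefSeq annotation Mir29b-1 and Mir29a lie on the minus strand of chromosome 6 with 275 bases between them, and no other annotated gene overlaps them. Mir29b-2 and Mir29c lie on the plus strand of chromosome 1 with 426 bases between them, within the long noncoding RNA gene A330023F24Rik. miR-29b-3p is cut from both clusters, so its signal cannot be divided between them. Per the files (mm9), the probe used for miR-29a-3p maps to chromosome 6, 31012716 to 31012734, and that for miR-29b-1-5p to chromosome 6, 31013028 to 31013049. The probe for miR-29c-3p maps to chromosome 1, 196863795 to 196863815, and that for miR-29c-5p to chromosome 1, 196863758 to 196863777. The probe for miR-29b-3p maps to both chromosome 6, 31013071 to 31013091, and chromosome 1, 196863287 to 196863307. On chromosome 6 these positions put miR-29b-1-5p below miR-29b-3p, the reverse of their order in RefSeq. There (GRCm38.p6) miR-29b-1-5p lies at 31063067 to 31063088 and miR-29b-3p at 31063025 to 31063047. The files' chromosome 6 positions may therefore not be those of the arms named, and the reason was not tested.

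The array reads each miRNA through short complementary DNA probes, repeated over many spots. The brightest probes of miR-29a-3p and miR-29c-3p are shown because only 1 base parts the stretch they share, in capitals.
miR-29a-3p probe: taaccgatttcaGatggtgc
miR-29c-3p probe: taaccgatttcaAatggtgcta
Each probe thus has 1 mismatch to the other miRNA, against 3 to 5 between either of these and miR-29b-3p in both directions. How far miR-29a-3p and miR-29c-3p are read by each other's probes was not tested, so their values may not be independent.

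All 6 arrays lay on 1 slide and had 0 saturated spots. Between 10.94% and 11.98% of the miRNA spots of an array were well above background, a call made by the scanner software. Values are log2 signal after each array was scaled to a common 75th percentile over the 393 probes detected on all arrays, and the brightest probe stands for each miRNA. Testing was limited to the 237 miRNAs that every array of sunitinib, every array of control, or both detected. Of 5 cardiomyocyte miRNAs, which check the tissue label, all were detected on all 6 arrays, with a summed linear signal of 131089.0 to 138639.4 in sunitinib and 122685.7 to 135618.1 in control.

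All 3 members of the 3p arm were detected on every array, as was miR-29c-5p, while miR-29b-1-5p was detected on every sunitinib array but only 2 of the 3 control arrays. None of the 5 members passed an adjusted p of 0.05 in limma, where 4 of 237 tested miRNAs passed as higher in sunitinib (1.69%) and 4 as lower (1.69%). The differences were all on the side of sunitinib, from 0.12 for miR-29c-3p to 0.74 for miR-29b-1-5p on the log2 scale, and a log2 change above 0 was found for 52.7% of all tested miRNAs. The median over the 5 members was 0.20, beside 0.019 over all tested miRNAs. miR-29b-1-5p entered the test only through the sunitinib arrays, which favours a higher value there, and the median is given as a description only.

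miR-29a-3p, from the chromosome 6 cluster, had values of 13.50, 13.24 and 13.37 in sunitinib replicates 1 to 3, against 13.03, 13.21 and 13.10 in control replicates 1 to 3. Every sunitinib array was above every control array, but sunitinib replicate 2 and control replicate 2 were only 0.03 apart. The means were 13.37 ± 0.13 and 13.11 ± 0.09 (SD, n = 3 each), or 1.2-fold. Its log2 change of 0.26 (SE 0.09, 95% interval 0.04 to 0.48) had a limma adjusted p of 0.211 and ranked 29 of 237 by p. The second probe, 1 base shorter, gave a difference of 0.22. With quantile normalization the change was 0.14, and the authors' deposited values gave 0.16.

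miR-29b-3p, which both clusters encode, had 11.87, 11.48 and 11.60 in sunitinib replicates 1 to 3, against 11.25, 11.58 and 11.59 in control replicates 1 to 3. The groups overlapped, because sunitinib replicate 2 lay below control replicates 2 and 3. The means were 11.65 ± 0.20 in sunitinib and 11.47 ± 0.19 in control (SD, n = 3 each), and the log2 change was 0.18 (SE 0.14, 95% interval -0.15 to 0.51, limma adjusted p = 0.545). It shrank to 0.07 without sunitinib replicate 1 and to 0.07 without control replicate 1, the highest and the lowest array. It was 0.10 with quantile normalization and 0.10 in the deposited values, and its second probe gave a difference of 0.13.

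miR-29c-3p, from the chromosome 1 cluster, had 11.97, 11.92 and 11.92 in sunitinib replicates 1 to 3, against 11.71, 11.85 and 11.87 in control replicates 1 to 3. The groups did not overlap and were 0.05 apart at the nearest, which is less than the control SD. The means were 11.94 ± 0.03 in sunitinib and 11.81 ± 0.09 in control (SD, n = 3 each), a 1.09-fold difference. The log2 change of 0.12 (SE 0.07, 95% interval -0.04 to 0.29) had a limma adjusted p of 0.363. It was 0.07 without control replicate 1, 0.05 with quantile normalization and 0.05 in the deposited values.

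**Figure D1:**
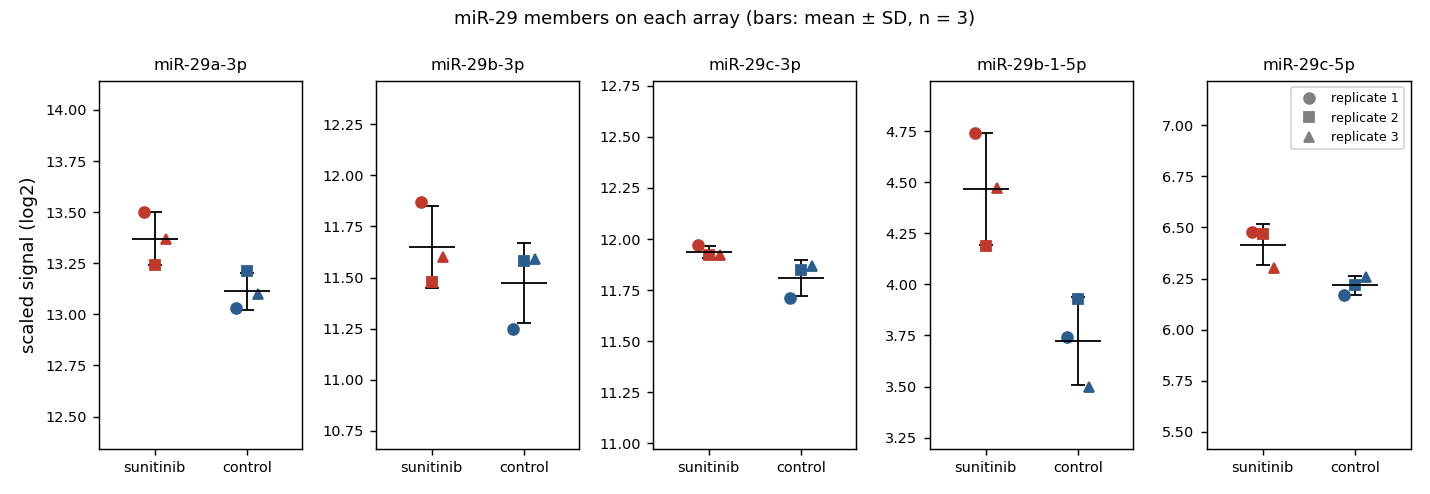
Scaled signal (log2) of the 5 members on each array, with sunitinib at the left and control at the right of each panel, marker shapes for replicates, and bars for the mean ± SD of 3 arrays. Each panel has its own axis, and all axes span the same log2 range. The groups overlap for miR-29b-3p and are parted by 0.03 to 0.05 for miR-29a-3p, miR-29c-3p and miR-29c-5p and by 0.26 for miR-29b-1-5p.

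miR-29c-5p is the strand opposite miR-29c-3p in the same hairpin and carries another seed. Its values were 6.48, 6.47 and 6.30 in sunitinib replicates 1 to 3, against 6.17, 6.22 and 6.26 in control replicates 1 to 3. Sunitinib replicate 3 was 0.04 above the highest control array and the other two were further off. The means were 6.42 ± 0.10 in sunitinib and 6.22 ± 0.04 in control (SD, n = 3 each), and the log2 change of 0.20 (SE 0.07, 95% interval 0.02 to 0.38) had a limma adjusted p of 0.233. A second probe gave 0.21. The change was 0.13 with normexp background correction and 0.12 with quantile normalization. With the slide row entered as a block it was 0.08.

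miR-29b-1-5p is the strand opposite miR-29b-3p in the Mir29b-1 hairpin, and its signal lay near background. It had 4.74, 4.19 and 4.47 in sunitinib replicates 1 to 3, against 3.74, 3.93 and 3.50 in control replicates 1 to 3. The lowest sunitinib array was 0.26 above the highest control array. The means were 4.47 ± 0.27 in sunitinib and 3.73 ± 0.22 in control (SD, n = 3 each), a 1.67-fold difference with a 95% interval of 1.26-fold to 2.22-fold. Control replicate 3 was not detected, so the control mean may be partly background and the fold is no firm estimate. Its log2 change of 0.74 (SE 0.17) ranked 6 of 237 from the most positive change down and 11 of 237 by p, and missed the threshold (limma adjusted p = 0.0864). It passed with scaling to the median of detected probes (limma adjusted p = 0.0477) and with array weights (limma adjusted p = 0.0327). With no filter it did not pass (limma adjusted p = 0.3). It entered the test only through the sunitinib arrays, which favours a higher value there, so its ranks and p-values are given as a description only.

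The size of that difference depends on the probe read. The 4 probes of miR-29b-1-5p are shown because they differ only in how far they reach toward the 5′ end of the miRNA, with the bases that the shortest probe lacks in capitals.
19-base probe: taaaccaccatatgaaacc
20-base probe: taaaccaccatatgaaaccA
21-base probe: taaaccaccatatgaaaccAG
22-base probe: taaaccaccatatgaaaccAGC
The 22-base probe, which pairs with the whole miRNA, gave the values above and was the only one detected on any array. All of its spots were well above background on the 3 sunitinib arrays, against 57.1% of them in control replicate 1, all in replicate 2 and 28.6% in replicate 3. The 21-base probe averaged 2.87 ± 0.32 in sunitinib and 2.65 ± 0.25 in control (SD, n = 3 each), a difference of 0.22. The 20-base and 19-base probes gave -0.22 and -0.18 at levels where no spot was well above background. With the mean of all 4 probes the change was thus 0.14. With normexp, whose added offset compresses dim signals, it was 0.18, and in the authors' deposited values it was 0.19 (means of 2.85 in sunitinib and 2.66 in control).

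**Figure D2:**
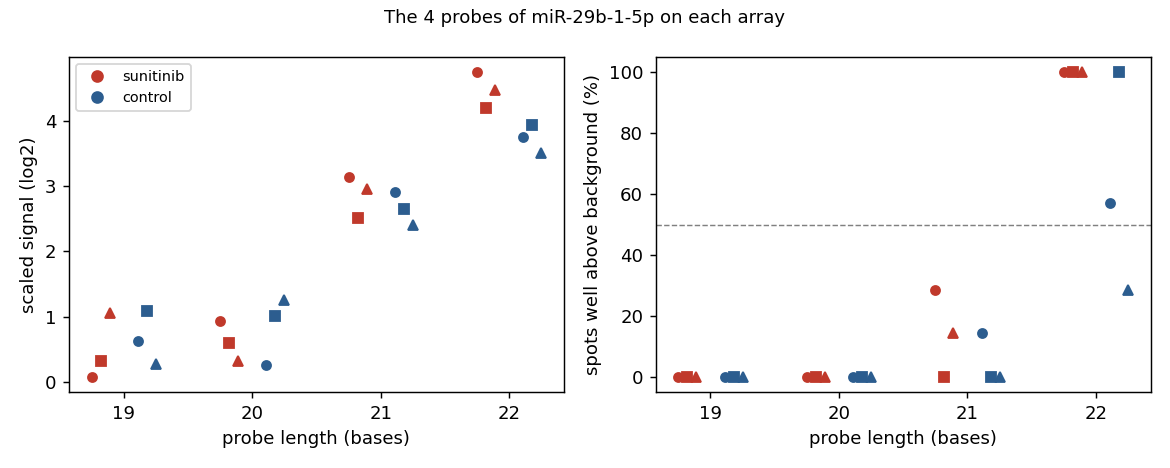
The 4 probes of miR-29b-1-5p by length in bases. The left panel gives scaled signal (log2) and the right panel the percentage of a probe's spots that were well above background on each array, with sunitinib left of control at each length, marker shapes for replicates, and a dashed line at the 50% needed for detection. Only the 22-base probe crosses that line, on all 3 sunitinib arrays and on 2 of the 3 control arrays.

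The other strands of the family's hairpins, miR-29a-5p and miR-29b-2-5p, are not among the members and were detected on 0 of 6 arrays. Their measured means, which lie within background, were 1.85 ± 0.37 in sunitinib and 1.54 ± 0.77 in control for miR-29a-5p, and 0.93 ± 0.26 in sunitinib and 0.88 ± 0.19 in control for miR-29b-2-5p (SD, n = 3 each). No fold is given for them. Of the 2 strands cut from a hairpin, both were detected on all arrays for Mir29c only.

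Read together, 4 of the 5 members had groups that did not overlap, all higher in sunitinib, as 18.1% of the tested miRNAs did. That count depends on the values used. In the authors' deposited values it was 1 (miR-29c-5p), where 13.9% of the tested miRNAs had such groups. With quantile normalization or no scaling it was 1, where 13.5% and 6.33% of the tested miRNAs had such groups. That 1 was miR-29b-1-5p, which entered the test only through the sunitinib arrays. The count was 2 with the 75th percentile taken over all probes, where the share of the tested miRNAs was 12.2%. Without miR-29b-1-5p it was 3 of the 4 members detected on all 6 arrays, where the background was 18.8%, and all 4 of these had a change above 0, against 52.9% of the miRNAs so detected. At an unadjusted p under 0.05 in limma 3 members stood higher (miR-29a-3p, miR-29c-5p and miR-29b-1-5p), against 10.5% of all tested miRNAs. Of the 4 members detected on all 6 arrays it was 2, against 10.8% of the miRNAs so detected. Of the members' 12 probes, 8 were detected on all 6 arrays and all 8 had a higher sunitinib mean, by 0.12 to 0.26. These 8 belong to the 4 members detected on all 6 arrays, so they repeat the members' count and add nothing to it. How many of all probes detected on all arrays had a higher sunitinib mean was not counted. Probes of a miRNA and members on an array are not independent measurements, and spots of these 8 probes varied with an SD of 0.04 to 0.37 within an array. The upper ends of the 95% intervals allow a difference of up to 1.39-fold for miR-29a-3p, 1.43-fold for miR-29b-3p, 1.22-fold for miR-29c-3p and 1.30-fold for miR-29c-5p, and the lower ends reach 1.03, 0.90, 0.97 and 1.02.

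**Figure D3:**
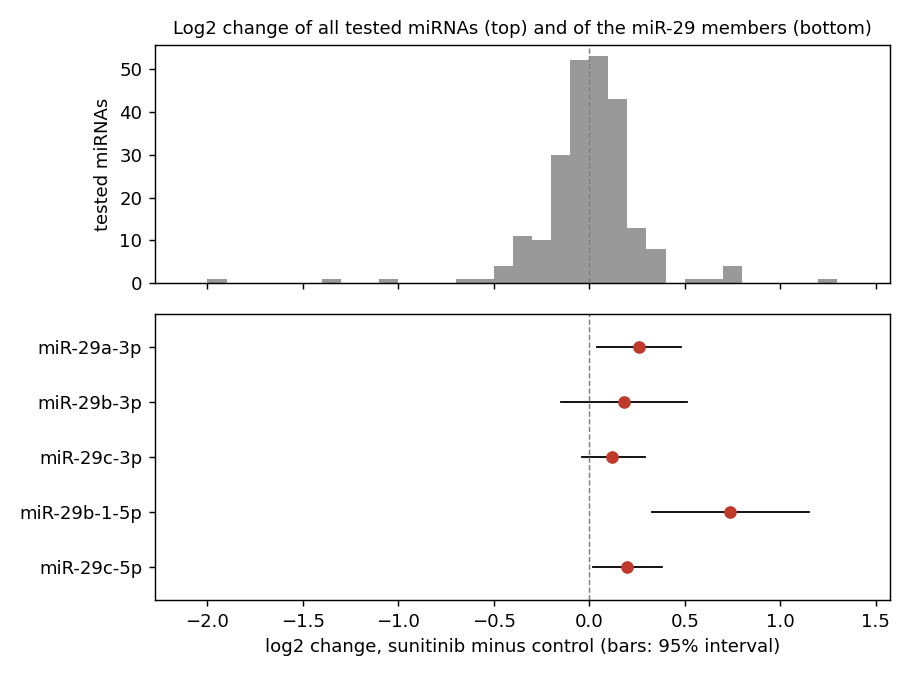
The upper panel counts the 237 tested miRNAs by log2 change, sunitinib minus control, in steps of 0.1. The lower panel gives the change of each member as a point with its 95% interval from the limma fit. All 5 points lie to the right of 0, and the intervals of miR-29b-3p and miR-29c-3p include 0. The intervals are not adjusted for the 237 tests, and none of the 5 members passed after adjustment.

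Sunitinib replicates 1 and 2 lay in the slide's row 1 and the other 4 arrays in row 2, so group and row can be parted only through sunitinib replicate 3. Within row 2 that array minus the mean of the 3 control arrays was 0.26 for miR-29a-3p, 0.13 for miR-29b-3p, 0.11 for miR-29c-3p, 0.74 for miR-29b-1-5p and 0.08 for miR-29c-5p. These differences rest on 1 sunitinib array. For miR-29a-3p and miR-29b-1-5p they equal the difference over all arrays to 2 decimals, since replicate 3 lay at its group mean. For miR-29b-3p, miR-29c-3p and miR-29c-5p they were smaller than the differences over all arrays, 0.18, 0.12 and 0.20.

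Whether the members differed by unequal amounts was compared within arrays, where the scaling cancels. For the 4 members detected on all arrays this gave 6 pairs, tested by exact two-sided permutation over the 6 samples, which cannot go below 0.1 with 3 against 3. The level of such a difference depends on the probes and is no ratio of abundances, so only the groups are compared. The log2 value of miR-29a-3p minus that of miR-29c-3p was 1.54, 1.32 and 1.45 in sunitinib replicates 1 to 3, against 1.31, 1.36 and 1.23 in control replicates 1 to 3. That was the widest gap between 2 members' changes, 0.14 (exact permutation p = 0.2, adjusted over the pairs 0.8), and the groups overlapped. Between the strands of Mir29c, miR-29c-3p minus miR-29c-5p averaged 5.52 ± 0.09 in sunitinib and 5.60 ± 0.05 in control (SD, n = 3 each), a difference in change of -0.08 (exact permutation p = 0.3, adjusted over the pairs 0.8). Between miR-29a-3p and miR-29b-3p, which share the chromosome 6 cluster in part, it was 0.08 (exact permutation p = 0.6, adjusted over the pairs 0.8). All 6 pairs overlapped between groups. These tests do not show that the members differ, nor that they move alike.

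The order of the arrays was alike in part between the members. In sunitinib, replicate 1 was the highest array for all 5 members, and replicate 2 the lowest for all except miR-29c-5p, though for miR-29c-3p replicates 2 and 3 were equal to 2 decimals. In control, replicate 1 was the lowest array for all members except miR-29b-1-5p, for which it was replicate 3. How many of all tested miRNAs had the same order was not counted, so it cannot be called a trait of the family. With each miRNA centred on its own mean, the 5 of 222 others most like miR-29a-3p over the 6 arrays were miR-92a-3p, miR-30b-3p, miR-193b-3p, miR-322-5p and miR-30d-5p, with root-mean-square differences of 0.035, 0.046, 0.046, 0.051 and 0.068 on the log2 scale and a median of 0.19 over all. The family's own members ranked lower, miR-29b-3p at 19 (0.098), miR-29c-3p at 20 (0.10) and miR-29c-5p at 28 (0.108). None of the 5 most like passed, although miR-193b-3p did with array weights (0.28, limma adjusted p = 0.0476), and their log2 changes ran from 0.18 for miR-322-5p to 0.30 for miR-92a-3p (limma adjusted p = 0.114).

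Other miRNAs that are linked to heart fibrosis were set beside the family. Among all 237 tested miRNAs 4 passed in limma as higher and 4 as lower, and 45 had an unadjusted p under 0.05. Their median change was 0.019, and 52.7% were above 0. Of 8 miRNAs known mostly as restraining fibrosis 7 were tested and 0 passed in limma (0 also at an unadjusted p under 0.05), with 6 above 0 and a median of 0.10. The remaining one, miR-101b-3p, was detected on no array, and 3 of the 8 also stand in a cell type list given below. Among them miR-26a-5p had a log2 change of 0.19 (limma adjusted p = 0.297) and miR-30c-5p, which targets connective tissue growth factor, one of 0.15 (limma adjusted p = 0.303). miR-133a-3p, a muscle miRNA with the same target, had 0.11 and miR-214-3p had -0.08. Of 6 miRNAs known mostly as promoting fibrosis all were tested and 0 passed in limma (1, miR-155-5p, at an unadjusted p under 0.05), with 3 above 0 and a median of 0.01. miR-21a-5p, which is induced in fibroblasts of failing hearts, averaged 10.68 ± 0.15 in sunitinib and 10.87 ± 0.27 in control (SD, n = 3 each), a log2 change of -0.19 (limma adjusted p = 0.588). miR-155-5p had 0.15, miR-199b-5p -0.14 and miR-125b-5p 0.07. The sign of miR-133a-3p turned in the deposited values (-0.01), and that of miR-125b-5p with quantile normalization (-0.01), with the second probe (-0.06) and in the deposited values (-0.03).

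Because whole ventricle was profiled, fewer cells of a type and less RNA per cell cannot be told apart. The counts below stand beside 4 of all 237 tested miRNAs that passed as higher, 4 as lower, and 45 at an unadjusted p under 0.05. A change above 0 was found for 52.7% of the tested miRNAs. Of 6 miRNAs that mark fibroblasts, where miR-29 is abundant, 0 passed in limma (0 also at an unadjusted p under 0.05). All were detected on all 6 arrays, their median change was -0.03, and their summed linear signal was 1810.4 to 1918.8 in sunitinib and 1708.1 to 2062.0 in control. Their changes ran from -0.08 for miR-199a-3p and miR-214-3p to 0.19 for miR-10a-5p. Of 5 leukocyte miRNAs 4 were tested, including miR-155-5p again, and miR-223-3p and miR-142a-3p fell by 1.32 (limma adjusted p = 0.00086) and 0.64 (limma adjusted p = 0.020) on the log2 scale. The remaining one, miR-142a-5p, was detected on no array, so no fold is given. Its measured means were 2.04 ± 0.50 in sunitinib and 3.16 ± 0.14 in control (SD, n = 3 each), with every sunitinib array below every control array. The other tested leukocyte miRNAs differed in sign from miR-223-3p and miR-142a-3p, miR-150-5p with 0.35 (limma adjusted p = 0.359) and miR-155-5p with 0.15 (limma adjusted p = 0.246). Thus 2 of the 4 tested were above 0. The summed signal of the 4 was 422.9 to 499.4 in sunitinib and 630.5 to 698.2 in control, without overlap, and their part in the members' values was not tested. Of 4 endothelial, 2 mural and 4 erythroid miRNAs, all detected, 0 passed in limma (1, miR-145a-5p of the mural list, at an unadjusted p under 0.05), and each list's summed signal overlapped between groups (10028.3 to 10448.2 in sunitinib and 9979.4 to 10939.5 in control for endothelial, 624.7 to 651.1 in sunitinib and 647.7 to 730.1 in control for mural, 4518.4 to 4773.3 in sunitinib and 3455.8 to 4993.2 in control for erythroid miRNAs). The endothelial changes ran from -0.18 for miR-126a-5p to 0.05 for miR-221-3p, with -0.02 for miR-126a-3p. The mural miRNAs miR-143-3p and miR-145a-5p had -0.07 and -0.23, and for miR-145a-5p every sunitinib array lay below every control array (limma adjusted p = 0.211). The erythroid changes ran from -0.10 for miR-144-3p to 0.32 for miR-144-5p, with 0.19 for miR-451a and -0.05 for miR-486a-5p.

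**Figure D4:**
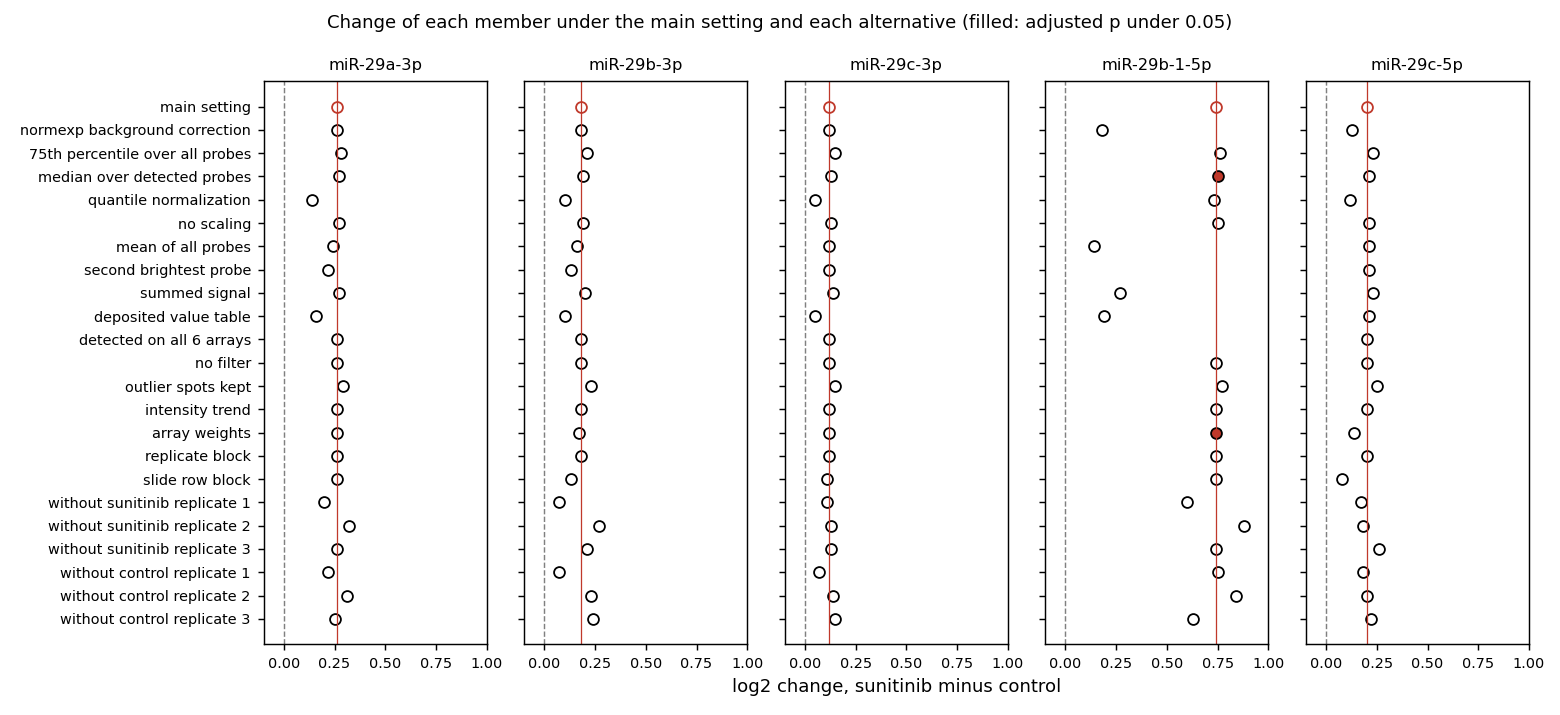
Log2 change, sunitinib minus control, of each member under the main setting (red ring and line) and under each alternative (rows). Filled points have an adjusted p under 0.05, which occurs only for miR-29b-1-5p with median scaling and with array weights. The summed signal of miR-29b-1-5p nearly equals that of miR-29a-3p and is not a value of its own. All points lie above 0, from 0.05 for miR-29c-3p to 0.88 for miR-29b-1-5p.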

How the data were processed

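miRNAs were measured on 1-colour Agilent arrays in 6 samples, grouped by their titles. The authors deposited scanner files of spot intensity, background-subtracted with Agilent Feature Extraction (version 10.7 per the submitters' processing notes, 10.7.1.1 per the file headers, which give build mm9). The authors' deposited value table holds log2 values, and neither their scaling nor their centring is stated in the labels. Its column medians run from 2.195 to 2.200, and each column correlated best with its own array. It served as an alternative.

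Control spots and spots marked as outliers were left out. After scaling, signals under 1 were set to 1 before log2 was taken, and a probe's spots were averaged. A probe counted as detected where 50% or more of its spots were well above background. limma 3.58.1 in R 4.3.3 gave the difference, sunitinib minus control, over 237 miRNAs, with Benjamini-Hochberg adjustment and a threshold of 0.05. The fit was also run on simulated data with independent normal noise. The changes added there were larger than those of the 4 members detected on all arrays. It therefore does not show how well the fit finds changes of their size. The number of arrays limits precision.

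The members, lists and settings were chosen with earlier results of these data known. Beyond the members, the miRNAs named are list members past the threshold, or up to 4 per fibrosis list by smallest p, marker miRNAs, and the 5 profiles most like miR-29a-3p. Alternatives covered background correction, scaling, probe summary, filter, outlier spots, variance model, array weights, blocks and each sample left out, with the tested miRNAs held fixed in the last.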

Additional observations from a re-analysis of the deposited data

How the results depend on the processing

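All 5 members stayed above 0 under each alternative in which they could be tested, 22 for 4 members and 19 for miR-29b-1-5p. miR-29b-1-5p was not tested with detection required on all arrays or with the second probe, and its summed signal nearly equals that of miR-29a-3p. Alternatives that changed only the filter, the variance model or the replicate block reuse the main values in the same contrast. They could alter a p-value but not the log2 change, so they are no separate check of its sign. The changes ran from 0.14 to 0.32 for miR-29a-3p, 0.07 to 0.27 for miR-29b-3p, 0.05 to 0.15 for miR-29c-3p, 0.08 to 0.26 for miR-29c-5p and 0.14 to 0.88 for miR-29b-1-5p. Of these tests only 2 passed, those of miR-29b-1-5p with median scaling (0.75, limma adjusted p = 0.0477) and with array weights (0.74, limma adjusted p = 0.0327), within a range of 0.0327 to 0.618 over its alternatives. Leaving out 1 sample gave 0.60 to 0.88 for it. Over all tested miRNAs, where 4 passed as higher and 4 as lower in sunitinib, normexp gave 2 higher and 2 lower. Quantile normalization gave 0 higher, as did testing with no filter, and the unscaled signal 1 higher. The summed signal gave 1 higher and 1 lower, and the slide row entered as a block 0 higher and 1 lower. There were 7 lower both when all probes were averaged and under array weights. Omitting single samples gave between 0 and 5 higher and between 2 and 3 lower, with 0 higher without any control sample and 1 higher without sunitinib replicate 1 or sunitinib replicate 2. With the replicate number as a block there were 0 higher and 2 lower and no member passed. Deviations of same-numbered samples from their group means were negatively correlated (-0.225, -0.483 and -0.178 over 223 miRNAs). With 3 arrays per group this cannot decide whether equal numbers share a source, and the titles do not say so. The main fit treats the samples as unpaired. Differences between members turned sign for miR-29a-3p and miR-29c-5p in the deposited values (-0.054), for miR-29b-3p and miR-29c-5p with normexp (0.045), and without a sample for these pairs (-0.00082 to 0.15 and -0.11 to 0.089) and for miR-29b-3p and miR-29c-3p (-0.036 to 0.13). miR-133a-3p turned to -0.01 in the deposited values, and miR-125b-5p to -0.01 with quantile normalization, -0.06 with the second probe and -0.03 in the deposited values. The causes were not tested. The signal of miR-29b-1-5p lies near background, which limits its precision. It entered the test only through the sunitinib arrays, so its 2 passes are given as a description only.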

Other observations

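The scanner software's summed signal for miR-29b-1-5p nearly equalled that of miR-29a-3p. On linear intensity it was 3949.01, 2675.43 and 3222.95 in sunitinib replicates 1 to 3, and 2863.2, 3024.75 and 2324.36 in control replicates 1 to 3. The software's sums for miR-29a-3p were 3945.02, 2673.78 and 3219.89 in sunitinib, and 2860.75, 3023.15 and 2323.28 in control, so on each array the first exceeded the second by only 1.08 to 3.99. The 4 probes of miR-29b-1-5p themselves summed to 1.76 to 4.23 by the same software. Its call of detected, made on all 6 arrays for miR-29b-1-5p, came with that sum, while the spot flags of its probes gave 5 of 6. The change of 0.27 for miR-29b-1-5p with the summed signal equals the 0.27 of miR-29a-3p and says nothing of its own level. In the deposited table the 2 were far apart, at 2.56 to 2.93 for miR-29b-1-5p and 12.55 to 12.86 for miR-29a-3p on the log2 scale.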
